A study of Rattus norvegicus with 2 samples.

Results

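Core genes of the cell division cycle, the D-type cyclins Ccnd1, Ccnd2 and Ccnd3, the mitotic cyclin Ccnb1, the cyclin-dependent kinases Cdk1, Cdk2 and Cdk4, the replication genes Prim1 and Pcna and the cytokinesis gene Racgap1, were compared between the duodenum of an immobilized rat and that of a control rat. They were taken by name, as every probe set of the rat U34A array whose annotation gives one of these 10 genes and no other, which found 22 of the 8799 probe sets and 10 of 4736 genes. The immobilized rat spent 2 weeks in an immobilization cage, and the control rat spent the same 2 weeks in a metabolic cage. Both were male Wistar rats aged 15 weeks, with no other treatment named in the labels. RNA of the duodenal mucosa, which the labels call epithelial cells, was hybridised to 1 array for each condition, an Affymetrix array that reads each transcript with sets of short oligonucleotide probes. Each label describes a single rat, and the sources used here do not mention whether RNA of several animals was combined.

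With 1 array per condition the rats could not be compared by a test, there was no replicate check, and p-values are not given. Precision is limited throughout by the number of arrays. Signals are in array units, and those of the immobilized rat were multiplied by 1.016 to centre the ratios of all probe sets above the floor. Signals at or under a floor of 39.9, the 50th percentile of all signals, were taken as having no order. On that basis 2524 genes lay above the floor on both arrays. The log2 ratio is the immobilized over the control signal. Between the probe sets of a gene, pairs on the same sequence record included, this ratio had a technical SD of 0.31 on the log2 scale (696 genes, 1570 probe sets), which equals 1.24-fold. Each ± below is this SD, an error within the arrays and not between animals. Genes were put in 3 classes of nearly equal size, of low, middle and high mean signal. Probe sets were classed by the same limits, and the SD was taken between probe sets of a gene in the same class. It was 0.33, 0.32 and 0.25 (105, 120 and 220 genes). The hybridisation spike-ins, RNAs added during the assay, gave lower signals from the immobilized rat for 7 of 9 probe sets, with log2 ratios from -0.55 to 0.16 and a median of -0.21. Markers of villus enterocytes, the absorptive cells of this tissue, were above the floor on both arrays for 19 of 19 genes.

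Cells of the intestinal crypts divide continuously and replace the epithelium of the villi. In dividing cells, D-type cyclins bind and activate Cdk4 early in the cycle, and the active kinase phosphorylates the retinoblastoma protein, which releases E2F transcription factors. Cdk2 then drives entry into DNA synthesis, in which primase starts new strands and PCNA holds the polymerases on the template. Cdk1 with cyclin B starts mitosis, and the protein encoded by Racgap1 acts at the end, in cytokinesis. Duodenal mucosa is a mixed sample, so fewer cells of a type and less RNA per cell cannot be told apart.

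Signals of the cell division genes were higher in the immobilized rat or nearly equal in both, and the size of the difference varied widely, with Cdk4 and Ccnb1 beyond 2-fold and Ccnd2 and Pcna close to equal. Of the 10 genes, 8 were above the floor on both arrays, Cdk1 was above it in the immobilized rat alone, and Cdk2 lay below it in both. Of those 8, all had a log2 ratio above 0, against 49.4% of the 2524 genes of the array. A total of 2 were at least 2-fold higher, against 2.02% of all genes, and 0 were at least 2-fold lower, against 0.674%. At least 1.5-fold higher were 3 of the 8, against 8.36%. The median log2 ratio of the 8 was 0.50, and that of all 2524 genes was -0.01. With the floor raised to the 70th percentile of signals, which leaves out Cdk4, Ccnb1, Prim1 and Racgap1, the median of the other 4 was 0.22. These 8 and their direction were known from earlier work on the same arrays when the genes were chosen, and the counts describe this pair of animals. Signals of the 22 probe sets are drawn by gene in the plot of signals.

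**Figure D1:**
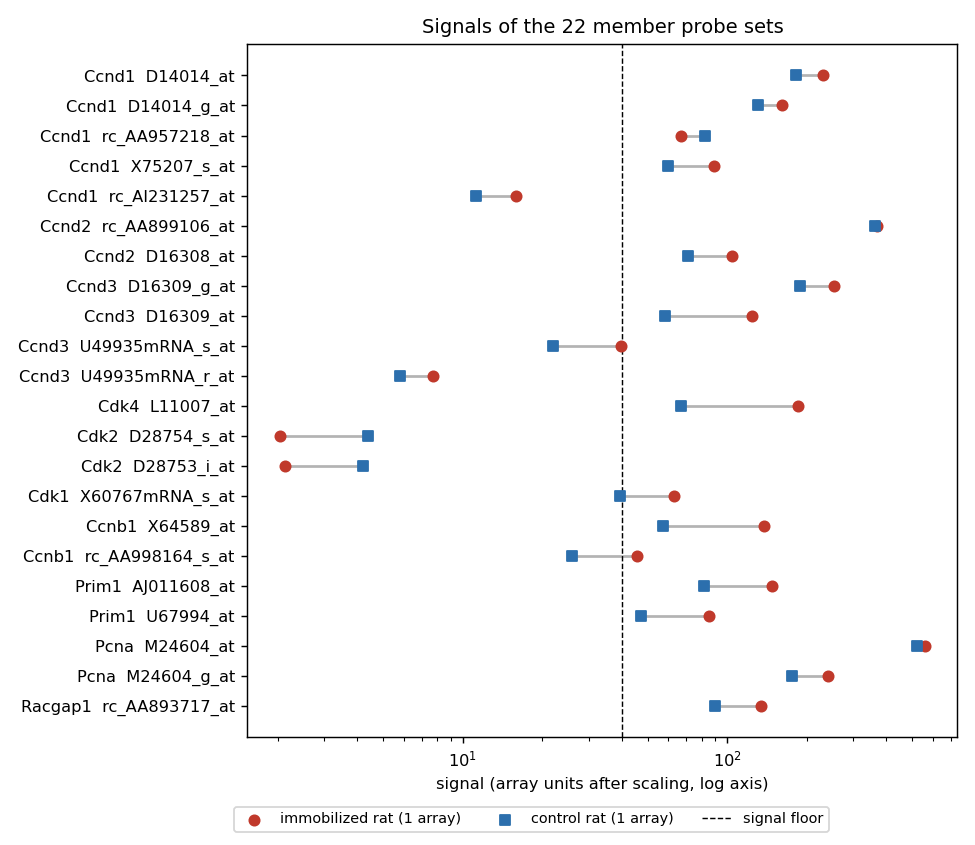
Signals of the 22 probe sets in the immobilized rat (circles) and the control rat (squares) on a log axis, 1 array each, with the floor of 39.9 as a dashed line. Circles lie right of squares for all probe sets above the floor on both arrays except 1 of Ccnd1, and the 2 Cdk2 probe sets lie far below the floor.

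The D-type cyclins, which link growth signals to Cdk4, had small to moderate differences that depended on the probe set. Ccnd1 was read by 5 probe sets. The probe set that stands for the gene, D14014_at, had a signal of 230.2 in the immobilized rat and 182.0 in the control rat, a log2 ratio of 0.34 ± 0.31 (1.26-fold). A further probe set on the same accession, D14014_g_at, had 161.5 in the immobilized rat and 131.2 in the control rat (log2 ratio 0.30). Because both read the same sequence record, they are not independent readings of Ccnd1.

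The remaining Ccnd1 probe sets disagreed. X75207_s_at had 89.0 in the immobilized rat and 59.5 in the control rat (log2 ratio 0.58). In rc_AA957218_at the order was turned, with 67.1 in the immobilized rat and 82.3 in the control rat (log2 ratio -0.30), the only ratio below 0 among the 15 member probe sets measured in both rats. The fifth, rc_AI231257_at, stayed under the floor, with 15.9 in the immobilized rat and 11.2 in the control rat. The range over the 4 measured probe sets, from -0.30 to 0.58 on the log2 scale, was 0.88 wide and therefore larger than the ratio of the gene itself.

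Ccnd2, which is read by a pair of probe sets on different sequence records, gave nearly the same signal in both rats at one and a higher signal in the immobilized rat at the other. Probe set rc_AA899106_at had 367.5 in the immobilized rat and 363.7 in the control rat, a log2 ratio of 0.01 ± 0.31. Probe set D16308_at had 104.8 in the immobilized rat and 70.9 in the control rat, a log2 ratio of 0.56 ± 0.31 (1.48-fold). The first represents the gene by the rule of highest mean signal, and its ratio has no settled direction, since it was -0.01 with the signals as deposited.

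Ccnd3 was higher in the immobilized rat at both of its measured probe sets, by unequal amounts. D16309_g_at had 254.5 in the immobilized rat and 189.3 in the control rat (log2 ratio 0.43 ± 0.31, 1.34-fold). D16309_at, designed on the same record, had 123.7 in the immobilized rat and 58.2 in the control rat (1.09 ± 0.31, 2.13-fold). It was the only probe set beyond 2-fold of a gene whose representative was not. The other 2 probe sets, both on another record, were not above the floor in either rat, and U49935mRNA_s_at came closest, with 39.5 in the immobilized rat and 21.9 in the control rat.

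Cdk4, the kinase partner of the D-type cyclins, had the largest ratio of the 8 genes measured in both rats. Its signal was 185.4 in the immobilized rat and 66.9 in the control rat, a log2 ratio of 1.47 ± 0.31 (2.77-fold). It ranked 8 of 2524 genes from the highest ratio down, and 4 of the 840 genes of middle mean signal, of which 3.21% were at least 2-fold higher. A single probe set, L11007_at, reads Cdk4, so no further probe set on the array could be set beside it, and the control signal was 1.68 times the floor. All cyclin D probe sets measured in both rats had smaller ratios than Cdk4, and D16309_at of Ccnd3 came nearest, as the plot of log2 ratios shows.

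Of the later-acting kinases, Cdk1 was measurable in the immobilized rat alone and Cdk2 in neither. Cdk1, which drives entry into mitosis, had a signal of 62.8 in the immobilized rat and 39.4 in the control rat, just under the floor, and was therefore at least 1.57-fold higher. With the floor moved down to the 30th percentile of signals, 12.6, its log2 ratio was 0.67 (1.59-fold). A single probe set reads Cdk1. Cdk2, the kinase of DNA synthesis, had 2.03 and 2.13 in the immobilized rat and 4.4 and 4.2 in the control rat over its 2 probe sets, all far under the floor. No direction is given for Cdk2.

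Ccnb1, the cyclin that activates Cdk1 at mitosis, was 2.42-fold higher, with 137.8 in the immobilized rat and 57.0 in the control rat (log2 ratio 1.27 ± 0.31). It ranked 20 of 2524 genes, and 7 of the 842 genes of low mean signal, where 1.54% were at least 2-fold higher. Its other probe set, rc_AA998164_s_at, on a different record, had 45.7 in the immobilized rat and 26.0 in the control rat, so it was above the floor in the immobilized rat alone and at least 1.15-fold higher. With the lower floor of 12.6 that probe set had a log2 ratio of 0.81 (1.76-fold). Both readings of Ccnb1 thus had the higher signal in the immobilized rat, and the ratio of the second was the smaller.

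**Figure D2:**
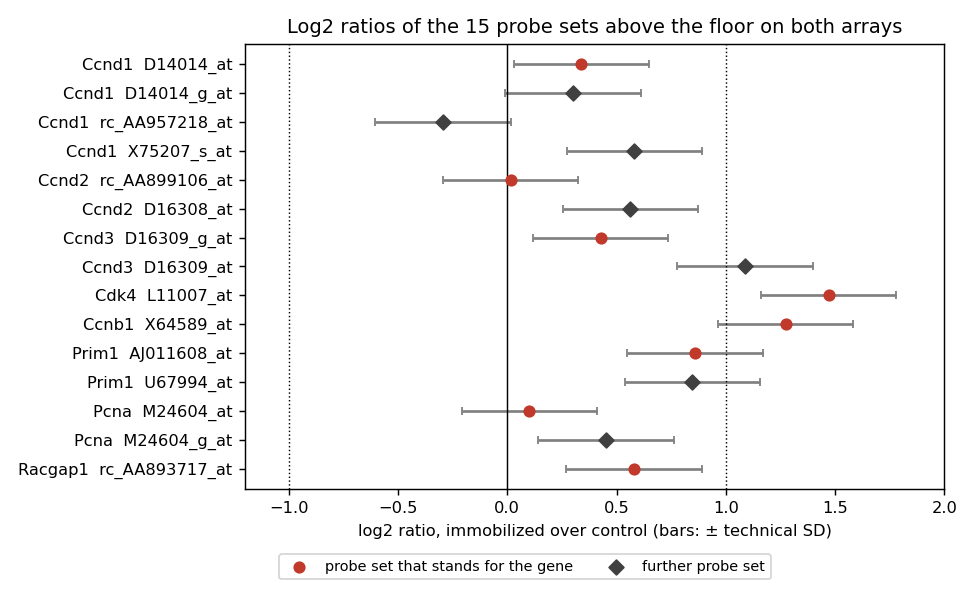
Log2 ratios, immobilized over control, of the 15 member probe sets above the floor on both arrays, with bars of ± 1 technical SD (0.31) and dotted lines at 2-fold. Red circles are the probe sets that stand for a gene and dark diamonds further ones, and the values run from -0.30 for a Ccnd1 probe set to 1.47 for Cdk4.

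The promoters of Ccnb1, Cdk1 and Cdk4 are shown because they hold matches to motifs that were chosen after the values were seen. These genes had a higher signal in the immobilized rat, by 2.42-fold, at least 1.57-fold and 2.77-fold. Prim1, 1.81-fold higher, held no match and is not shown. RefSeq's table of rat promoters (GRCr8) held 7 of the 10 genes. Each line is the 250 bases before the annotated start site, on the gene's strand. In Ccnb1 the capitals mark the CCAAT box, in Cdk1 the CCAAT box on the opposite strand, which reads ATTGG here, and the letters TTTGAA, the core of the cell cycle homology region, and in Cdk4 the E-box CACGTG, the letters that Myc and related factors bind.
Ccnb1 (chr2:33655226-33655475, minus strand): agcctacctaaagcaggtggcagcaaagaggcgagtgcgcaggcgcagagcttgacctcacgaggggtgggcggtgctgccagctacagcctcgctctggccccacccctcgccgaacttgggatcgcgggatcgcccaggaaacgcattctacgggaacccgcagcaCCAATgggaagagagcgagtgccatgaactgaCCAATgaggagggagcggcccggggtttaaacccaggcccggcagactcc
Cdk1 (chr20:19265043-19265292, plus strand): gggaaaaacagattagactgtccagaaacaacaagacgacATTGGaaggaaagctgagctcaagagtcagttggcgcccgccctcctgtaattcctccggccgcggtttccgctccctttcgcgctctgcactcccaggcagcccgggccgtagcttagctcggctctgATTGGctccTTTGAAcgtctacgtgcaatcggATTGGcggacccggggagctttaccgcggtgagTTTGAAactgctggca
Cdk4 (chr7:64771203-64771452, plus strand): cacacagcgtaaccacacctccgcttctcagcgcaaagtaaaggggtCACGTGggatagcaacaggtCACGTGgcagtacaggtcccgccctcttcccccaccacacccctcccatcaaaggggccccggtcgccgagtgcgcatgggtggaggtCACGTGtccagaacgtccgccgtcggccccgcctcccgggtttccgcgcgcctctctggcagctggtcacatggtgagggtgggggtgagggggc

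Ccnb1 had 2 CCAAT boxes, and Cdk1 had 3. In both genes the nearest pair lay 32 bases apart, first base to first base, with the downstream box beginning 50 bases before the start site in Ccnb1 and 49 in Cdk1. Cdk1 also held TTTGAA at 2 places, beginning 72 and 16 bases before the start. Cdk4 had the E-box 3 times, beginning 203, 183 and 95 bases before its start, and no CCAAT box. On both strands of all 33469 promoters of the same length, CCAAT occurred at least once in 34.02% and at least 2 times in 9.42%. It occurred at least 3 times in 2.525%. TTTGAA occurred in 16.2% of promoters, and at least 2 times in 2.09%. CACGTG occurred in 5.59% and at least 3 times in 0.051%. Among the other members in the table, Ccnd3, Cdk2 and Pcna had 1 CCAAT box each. Prim1 had none of the 5 motifs searched, which also included GCGGGAA, a core bound by E2F factors (3.36% of promoters, and Cdk2 alone among the 7 genes), and TATAAA (12.9%, and none of the 7). No motif searched lies within another, and no matches in the member promoters overlapped. The genes shown were picked partly for their matches, so the shares over all promoters are no test of them. A match is a description of the sequence and not a bound site.

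The replication genes differed from each other. Prim1, the catalytic subunit of the primase that lays down RNA primers for new DNA strands, was read by probe sets on separate records that gave nearly the same ratio. AJ011608_at had 148.3 in the immobilized rat and 81.8 in the control rat (log2 ratio 0.86 ± 0.31, 1.81-fold). U67994_at had 85.1 in the immobilized rat and 47.3 in the control rat (0.85 ± 0.31, 1.80-fold). The pair differed by 0.01 on the log2 scale, the closest match among the 5 member genes read in both rats by several probe sets, and Prim1 ranked 84 of 2524 genes.

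Pcna, the sliding clamp of the replicative polymerases, was close to equal at its representative probe set. M24604_at had 561.0 in the immobilized rat and 522.9 in the control rat, a log2 ratio of 0.10 ± 0.31, and ranked 974 of 2524. M24604_g_at, on the same record, had 241.1 in the immobilized rat and 176.3 in the control rat (0.45 ± 0.31, 1.37-fold). Both were above 0, by less than 1 technical SD for the first and by 1.46 of them for the second.

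Racgap1, needed for the contractile ring in cytokinesis, was 1.49-fold higher, with 134.1 in the immobilized rat and 89.8 in the control rat (log2 ratio 0.58 ± 0.31). It has a single probe set and ranked 216 of 2524 genes. In order of log2 ratio the 8 genes were Cdk4, Ccnb1, Prim1, Racgap1, Ccnd3, Ccnd1, Pcna and Ccnd2. No neighbours in this order differed by more than 0.44 on the log2 scale, the error of a difference between 2 ratios. The widest step was 0.42, between Ccnb1 and Prim1.

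**Figure D3:**
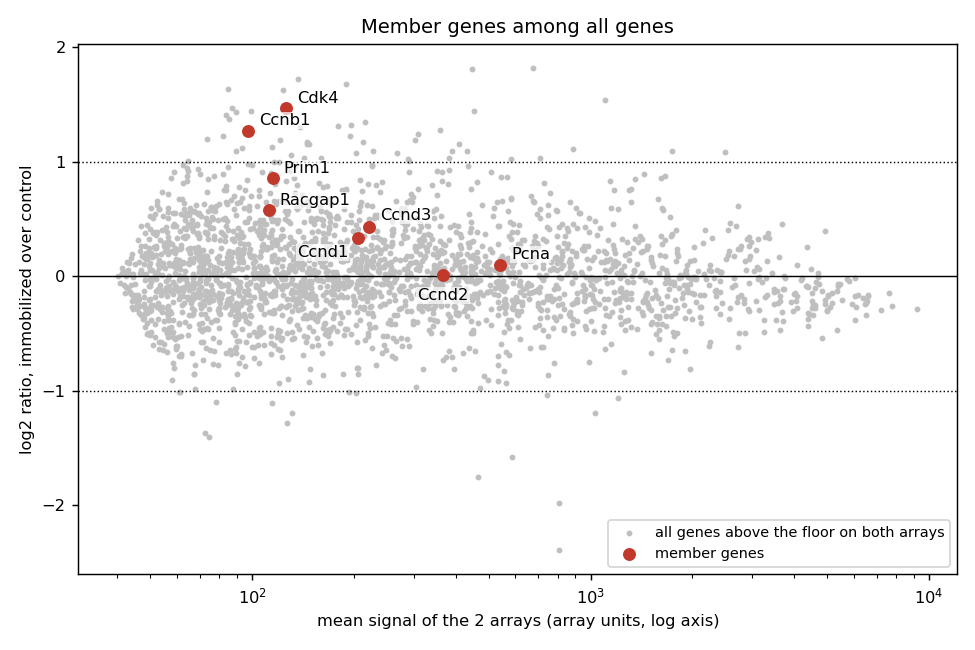
Log2 ratio, immobilized over control, against the mean signal of the 2 arrays on a log axis for the 2524 genes measured in both rats (grey) and the 8 member genes among them (red), with dotted lines at 2-fold. Cdk4 and Ccnb1 lie above the upper line, and Ccnd2 (0.01) and Pcna (0.10) lie near 0.

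By probe set in place of gene, 14 of the 15 measured member probe sets had a ratio above 0, against 49.7% of the 3401 annotated probe sets above the floor on both arrays. At least 2-fold higher were 3 of the 15, against 1.88%. Their median log2 ratio was 0.56 (1.48-fold). These probe sets read the same genes, which were chosen with their direction known, and some pairs share a sequence record. The count by probe set is therefore no separate evidence beside the count by gene. Of the other 7 probe sets, 2 were above the floor in the immobilized rat alone and 5 in neither rat. The floor at the 30th percentile added 3 probe sets, of Cdk1, Ccnb1 and Ccnd3, each with a ratio above 0. Within the 5 genes with several measured probe sets, ratios had a pooled SD of 0.35 (12 probe sets), beside 0.31 over the whole array.

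The genes whose pair of signals lay nearest to those of the 2 members beyond 2-fold were found among all others by the distance between their log2 signals over the 2 arrays. Nearest to Cdk4 were the chemokine gene Ccl5 (distance 0.15), the secretory phospholipase gene Pla2g2a (0.19) and the mast cell protease gene Mcpt1 (0.20). Nearest to Ccnb1 were Tmc6 (0.12), the defensin gene RatNP-3b (0.12) and the thioredoxin reductase gene Txnrd2 (0.18). With 2 arrays such nearness says only that the signals of these probe sets were alike.

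Other genes of the division cycle lay in both directions. The lists named 142 of them, of which 61 were on the array and 36 measured in both rats, 22 higher and 14 lower in the immobilized rat, with 0 beyond 2-fold in either direction. Their median log2 ratio was 0.12, beside -0.01 over all genes, and the share above 0 over all genes was 49.4%. Replication and nucleotide supply genes were higher for 8 of 11, with a median of 0.26. Farthest from 0 was Rpa3, a subunit of the single-strand binding protein (91.5 in the immobilized rat and 60.1 in the control rat, log2 ratio 0.61). Topoisomerase Top2a came next (200.3 in the immobilized rat and 139.9 in the control rat, 0.52, with 0.31 at another probe set). The helicase subunit Mcm6 had 227.9 in the immobilized rat and 164.3 in the control rat (0.47, with 3 probe sets from 0.28 to 0.47). The polymerase alpha subunit Pola2 followed at 0.28. The helicase subunit Mcm7 was at -0.16. A further 9 of the 20 replication genes with a probe set, among them the other primase subunit gene Prim2 (20.8 in the immobilized rat and 9.0 in the control rat), were under the floor in both rats.

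Mitosis and cytokinesis genes were higher for 9 of 12, beside 49.4% of all genes, with a median of 0.29. The GTPase gene Cdc42 had 1467 in the immobilized rat and 823.6 in the control rat (log2 ratio 0.83), but its 4 probe sets spread from -0.06 to 0.83. The cohesin subunit Smc1a was at 0.79 (0.36 at another probe set), the GTPase Rhoa, which acts in the contractile ring, at -0.69, and the chromatin protein Hmgb1 at 0.45. Cdc42, Rhoa and Hmgb1 also act outside cell division. Hmgb2 (52.3 in the immobilized rat and 20.1 in the control rat) and the mitotic kinase gene Aurkb (41.7 in the immobilized rat and 11.5 in the control rat) were above the floor in the immobilized rat alone, at least 1.31-fold and 1.04-fold higher; they and Mcm7, Prim2, Rb1 and some of the marker genes were named after their values were seen.

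The list of inhibitor and checkpoint genes, not all of which restrain the cycle, and that of the other kinases had medians slightly below 0. Inhibitor and checkpoint genes were higher for 3 of 6, beside 49.4% of all genes, with a median of -0.09. The stress-induced gene Gadd45a had 286.3 in the immobilized rat and 502.6 in the control rat (log2 ratio -0.81; 3 probe sets from -0.81 to -0.52). The Cdk4 inhibitor gene Cdkn2b had 105.5 in the immobilized rat and 148.8 in the control rat (-0.50). The inhibitor gene Cdkn1a was at 0.34 and the retinoblastoma relative Rbl2 at -0.21. Rb1, which encodes the retinoblastoma protein, had 29.3 in the immobilized rat and 63.1 in the control rat, at least 1.58-fold lower. Of the other kinases and their activators 1 of 5 was higher, beside the same 49.4% of all genes, with a median of -0.10. Cdk5r1 was at -0.29, Cdc37 at -0.17 (but 0.04 at another probe set), Cdc25b at 0.14 and Cdk7 at -0.10. Cdk5r1, Cdc37 and Cdk7 also act outside cell division. Of the other cyclins, Ccng1 was at 0.57, Ccne1 at -0.10, and Ccnc was under the floor in both rats.

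**Figure D4:**
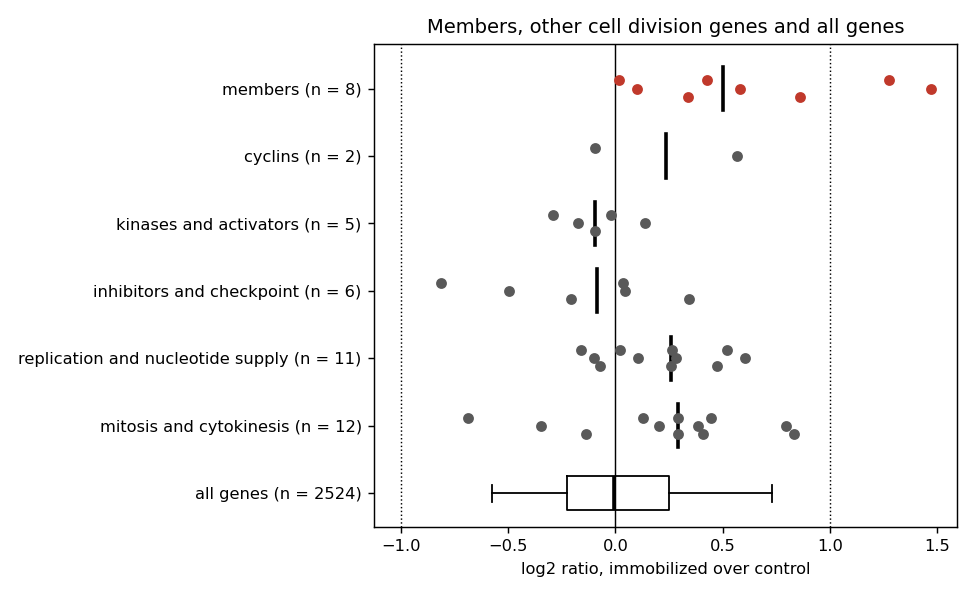
Log2 ratios, immobilized over control, of the 8 measured member genes, of 5 lists of other cell division genes (points, with the median as a black bar) and of all 2524 genes (box over the quartiles, whiskers at the 5th and 95th percentiles). Medians were 0.50 for the members, 0.23 for the other cyclins (2 genes), 0.26 for replication and 0.29 for mitosis. They were -0.10 for kinases, -0.09 for inhibitors and -0.01 for all genes.

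Markers of cell types also differed between the arrays, and their part in the ratios of the cell division genes was not tested. Of 6 crypt genes with a probe set, only Slc12a2, a chloride cotransporter of crypt cells, was above the floor on both arrays (161.0 in the immobilized rat and 90.4 in the control rat, log2 ratio 0.83), Cd44 was above it in the immobilized rat alone, and 4 were below, among them Lgr5, which marks crypt stem cells, and have no order. The summed signal of the 6, most of it from Slc12a2 and part of it from genes under the floor, was 270.1 in the immobilized rat and 158.5 in the control rat and is no reading of the list as a whole. Villus enterocyte genes were higher for 4 of 19 and lower for 15, beside 49.4% of all genes above 0, with a median of -0.18. Their summed signals were 64686 in the immobilized rat and 73052 in the control rat. Apoa1 was at -0.29, Fabp1 at -0.14 and Anpep at -0.01 (3 probe sets from -0.74 to -0.01). Lymphocyte genes, whose cells can also divide, were higher for 5 of 6 measured, beside the same 49.4%, with a median of 0.36. Their sums, part of them from genes under the floor, were 694.4 in the immobilized rat and 616.9 in the control rat. The measured ones were Lck (0.15), Cd53 (0.22), Cd48 (0.49), Cd37 (0.54), the T cell marker Cd4 (-0.37) and the T cell receptor component gene Cd3g (0.62, with 63.5 in the immobilized rat and 41.3 in the control rat). Another component, Cd3d, and the B cell marker Cd79b were among the 6 genes under the floor on both arrays. Ptprc, which leukocytes share, was above the floor in the control rat alone (38.4 in the immobilized rat and 50.1 in the control rat).

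Exocrine pancreas genes were higher for 16 of 17 measured, with a median of 0.75 and sums of 19256 in the immobilized rat and 14361 in the control rat, and 5 of the 17 were at least 2-fold higher, beside 49.4% of all genes above 0 and 2.02% at least 2-fold higher. These 5 were Ctrb1 (3.53-fold), Sycn (3.51-fold), Clps (2.72-fold), Gp2 (2.66-fold) and Amy2a3 (2.13-fold). Prss1 had a log2 ratio of 0.75, with Zg16, which goblet cells also express, at -0.38. Smooth muscle genes were higher for 3 of 6 and fibroblast genes for 3 of 7, with medians of 0.25 and -0.01. The smooth muscle sums, part of them from genes under the floor, were 1704 in the immobilized rat and 1519 in the control rat. Those of fibroblasts were 3560 in the immobilized rat and 4384 in the control rat. The brightest smooth muscle genes were Tpm1 (-0.16), Acta2 (1.68, but -0.13 at another probe set) and Myl9 (-0.02, but 0.79 at another). The brightest fibroblast genes were Sparc (-0.38), Col1a1 (-0.39, with 4 probe sets from -0.39 to 0.07) and Vim (0.91). No marker gene of the 6 lists had a signal of 0.

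Scaling moved the ratios of the member genes little, as the plot of processing choices shows. Over the other scalings, floors and probe set rules that gave a value, the log2 ratio of Prim1 lay between 0.79 and 0.86 and that of Racgap1 between 0.50 and 0.58. The genes read by unlike probe sets moved more, with Ccnd3 between 0.36 and 0.76, Pcna between 0.08 and 0.28, Ccnd2 between -0.01 and 0.29, and Ccnd1 between -0.30 and 0.34.

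**Figure D5:**
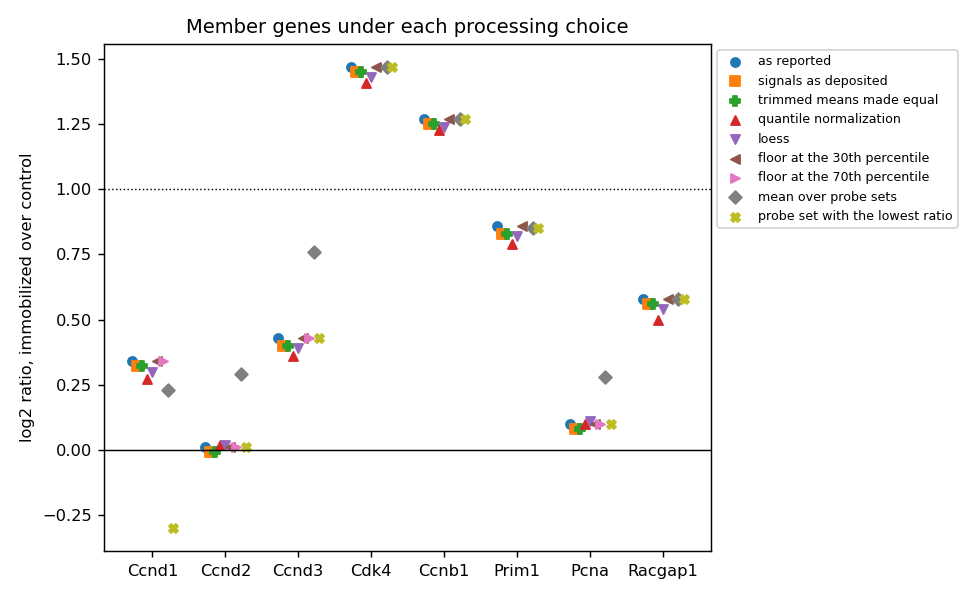
Log2 ratios, immobilized over control, of the 8 member genes as reported (blue circles) and under 8 other processing choices (other symbols), with a dotted line at 2-fold. Cdk4 stays between 1.41 and 1.47 and Ccnb1 between 1.23 and 1.27, and the wide spread for Ccnd1, Ccnd2, Ccnd3 and Pcna comes from the choice of probe set.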

How the data were processed

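Each condition had 1 array, with the groups named in the sample titles. The authors deposited 1 signal intensity per probe set on a linear scale. The submitters' processing notes give MAS5, but the design text gives version 4.0 of the array maker's software, which filters and normalizes, so the algorithm behind the signals is not settled. The authors' values had 2% trimmed means of 215.9 in the immobilized and 216.0 in the control rat, with medians of 39.3 in the immobilized and 40.0 in the control rat. The array annotation gave 1 symbol to 7006 of 8799 probe sets, several to 308 and none to 1426, beside 59 array controls. None with several symbols held a member. Symbols were updated by gene ID for 6985.

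The immobilized array was scaled by 1.016 (median log2 ratio of 0 above the floor). The floor was the 50th percentile of all signals, 39.9. The probe set with the highest mean signal stood for its gene, and a gene above the floor on 1 array got a bound, its signal over the floor. The technical SD was pooled within genes. Every member gene was named, and all member probe sets were drawn in the plot of signals. Also named were up to 4 genes of each other division list farthest from 0. To these came the 3 genes nearest to each member beyond 2-fold, and the 3 brightest of each cell type list. The members, lists, rules and alternatives were chosen with earlier results of these arrays known. Motifs were chosen after the values were seen. The scripts were tested on simulated data. Detection calls were not used here. Work was done in Python 3.11.15 with matplotlib 3.10.9, statsmodels 0.14.6, scipy 1.17.1, pandas 2.3.3 and numpy 2.4.6.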

Additional observations from a re-analysis of the deposited data

How the results depend on the processing

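Alternatives changed the scaling (deposited signals, equal 2% trimmed means, loess with span 0.3, quantile normalization), the floor (70th or 30th percentile), the fold (1.5 or 3), the unit (probe sets, their mean, bounds counted) and, chosen after seeing the data, the probe set with the lowest ratio for each gene. Of 61 values of member genes under 8 of these, 58 stayed above 0. Ccnd1 was at -0.30 with its lowest probe set, and Ccnd2 was at -0.01 with the signals as deposited and with equal trimmed means, a ratio that was 0.01 as reported. Ccnd3 moved to 0.76 with the mean over probe sets. With the floor at the 70th percentile only 4 members were measured, all 4 above 0 and 0 of them at 2-fold, since Cdk4 and Ccnb1 fall under that floor in the control rat; 717 of 1521 genes of the array and 14 of 19 other division genes were then above 0, against 1246 of 2524 and 22 of 36 as reported. By probe set 14 of 15 members were above 0. No member reached 3-fold (0 genes). Genes of the whole array at least 2-fold higher numbered 106 and 22 with the floors at the 30th and 70th percentiles, and 211 and 6 at 1.5-fold and 3-fold, against 51 as reported. Those lower numbered 71 and 9 with these floors, 123 and 3 at these folds, 26 with bounds counted, 27 by probe set and 26 with the lowest probe set, against 17. The median log2 ratio of the members, 0.50 as reported, lay between 0.43 and 0.67 under the other alternatives that gave one and was 0.22 over the 4 genes left by the floor at the 70th percentile. No paired analysis was possible because each group has 1 array. Signal over background limits Cdk4, Ccnb1, Cdk1 and Prim1, whose control signals lay within about 2.05 times the floor. It also limits the probe sets with the highest ratios of Ccnd3 (D16309_at), Ccnd1 (X75207_s_at) and Ccnd2 (D16308_at). Their control signals were 1.46, 1.49 and 1.78 times the floor.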
